A study of Homo sapiens with 22 samples.

Results

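Cystatins and clade B serpins are the protease inhibitors that cells keep close to their own lysosomes, granules and cytosol, and 8 of them were followed here across 22 RNA-Seq libraries of HUDEP-2 cells: 4 cystatins (CST3, CST7, CSTA and CSTB) and 4 clade B serpins (SERPINB1, SERPINB6, SERPINB8 and SERPINB9). These 8 symbols were found among 59087 gene names in both raw count tables. They were taken as a list of names, in which CST7 and SERPINB6 were chosen by their fold change between H2A.X KO and WT cells at D6, where they were among the largest changes. Every value that involves H2A.X libraries of D6 is therefore given as a description without a test.

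HUDEP-2 is an immortalized human erythroid progenitor line from umbilical cord blood that is grown in expansion medium and then matured into late erythroblasts. D0 is the start of differentiation and D6 is day 6 in differentiation medium. In the H2A.X experiment, 2 WT replicates (H2A.X WT) and 3 KO subclones (H2A.X KO) were sequenced on both days, and in the BAZ1B experiment 3 WT replicates (BAZ1B WT) and 3 KO subclones (BAZ1B KO). The KO lines were made by CRISPR/Cas9 with a pair of guides that removed the H2A.X coding region or the start of BAZ1B, the kinase of H2A.X Y142, on both alleles. Each KO line grew out of a single sorted cell, so clone and genotype are joined in every KO value. No other agent or allele is named that separates the genotypes. The paper's methods list dexamethasone for the expansion medium and not for the differentiation medium, which has its own supplements such as plasma, heparin and insulin. Medium and day are therefore joined in every value between D0 and D6. The study's text calls its WT cells subclones in places and cultures in others, and the labels do not say what a WT replicate was, so a p-value below measures the spread between these libraries, part of which may be technical.

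Cystatins are tight, reversible inhibitors of papain-like cysteine proteases, the cathepsins, and some also block legumain. CST3 (cystatin C) is secreted by most cells, CST7 (cystatin F) is a blood cell cystatin that is routed to endosomes and lysosomes, and CSTA and CSTB (stefins A and B) stay in the cytosol. Clade B serpins are suicide inhibitors without a classical signal peptide that protect a cell from proteases leaking out of its own granules. SERPINB1 traps neutrophil elastase, proteinase 3 and cathepsin G, SERPINB6 traps cathepsin G and trypsin-like enzymes, SERPINB9 traps granzyme B, and SERPINB8 acts on furin. Blood cells with granules, such as mast cells, eosinophils, neutrophils and cytotoxic lymphocytes, are rich in several of these inhibitors.

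The members lie in a few places in the hg38 genome. CST3 (chr20:23626706-23638473, minus strand) and CST7 (chr20:24949269-24959928, plus strand) are 1310.8 kb apart, CSTB is at chr21:43772511-43776330 (minus strand) and CSTA at chr3:122325248-122341969 (plus strand). SERPINB1 (chr6:2832332-2841959), SERPINB9 (chr6:2887270-2903309) and SERPINB6 (chr6:2948159-2972165) sit side by side on the minus strand, with 45.3 kb between SERPINB1 and SERPINB9 and 44.8 kb between SERPINB9 and SERPINB6, and SERPINB8 is alone at chr18:63970029-64019779 (plus strand). The cystatin transcripts are short, 588 to 891 bp, and the serpin transcripts run from 1315 to 4143 bp.

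The promoters of the 3 neighbouring serpins are shown because their transcripts took different courses between the groups, and that of CST3 because it stands for a gene that was transcribed in every library. Each is a RefSeq window on build GRCh38.p14 from 250 bases before to 50 bases after a transcription start, printed 5′ to 3′ on the gene's strand. Capitals mark matches, on either strand, to the GC box GGGCGG, to the TATA box TATAAA and to GATA sites (AGATAA or AGATAG, and likewise TGATAA or TGATAG).
SERPINB6 (chr6:2971518-2971817): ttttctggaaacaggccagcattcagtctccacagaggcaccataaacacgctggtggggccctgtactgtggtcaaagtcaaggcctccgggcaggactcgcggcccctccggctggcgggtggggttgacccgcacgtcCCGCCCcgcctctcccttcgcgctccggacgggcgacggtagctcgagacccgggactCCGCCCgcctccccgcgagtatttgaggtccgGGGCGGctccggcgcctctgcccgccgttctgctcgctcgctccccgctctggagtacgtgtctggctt
SERPINB1 (chr6:2841814-2842113): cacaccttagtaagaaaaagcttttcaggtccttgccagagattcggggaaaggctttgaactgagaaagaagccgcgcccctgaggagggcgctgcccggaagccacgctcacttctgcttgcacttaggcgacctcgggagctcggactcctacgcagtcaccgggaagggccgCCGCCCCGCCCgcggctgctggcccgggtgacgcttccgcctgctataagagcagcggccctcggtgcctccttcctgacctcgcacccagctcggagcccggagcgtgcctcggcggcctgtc
SERPINB9 (chr6:2903260-2903559): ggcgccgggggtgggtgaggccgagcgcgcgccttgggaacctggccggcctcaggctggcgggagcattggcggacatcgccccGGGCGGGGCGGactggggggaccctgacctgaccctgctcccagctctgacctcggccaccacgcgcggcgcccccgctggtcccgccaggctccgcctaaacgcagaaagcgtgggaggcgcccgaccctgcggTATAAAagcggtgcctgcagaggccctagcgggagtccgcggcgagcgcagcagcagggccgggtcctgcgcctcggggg
CST3 (chr20:23637906-23638205): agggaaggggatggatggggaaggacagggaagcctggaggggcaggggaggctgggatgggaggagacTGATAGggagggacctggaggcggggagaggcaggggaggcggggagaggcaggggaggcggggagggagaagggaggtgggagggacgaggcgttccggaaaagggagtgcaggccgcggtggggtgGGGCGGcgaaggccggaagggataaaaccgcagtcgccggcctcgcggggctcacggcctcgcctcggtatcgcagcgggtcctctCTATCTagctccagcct

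The SERPINB6 window held 3 GC box matches, and those of SERPINB1 and SERPINB9 held 2 each. In SERPINB1 and in SERPINB9 the paired GC boxes share a base. A TATA box match stood 30 bases before the SERPINB9 start, and none was found in the other printed windows. None of the 3 serpin windows held a GATA site, while the CST3 window held 2 GATA sites and 1 GC box. Of all 35116 windows in the table, 45% held the GC box, 25% a GATA site and 11.5% the TATA box, so such matches are common. The table gave 4 windows for SERPINB6, of which the most upstream is printed, and 5 of the 8 members had a window. CST7, CSTA and CSTB had none.

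Reads are given below as raw counts, or as CPM, the usual depth-scaled count, taken here over TMM-adjusted library sizes computed within each table. Levels set side by side from the H2A.X and BAZ1B tables were scaled separately, and no test was run between the tables. Levels of different genes are compared as RPKM, which divides CPM by transcript length in kilobases. Libraries held 11910141 to 21013004 counted reads in the H2A.X experiment and 33199408 to 41273244 in the BAZ1B experiment. At these depths a count of 0 allows up to 3 reads, which is 0.0688 CPM in the deepest library and 0.306 CPM in the shallowest, for counting error alone. A call is an adjusted p below 0.05 in edgeR's quasi-likelihood test, adjusted by Benjamini-Hochberg over every gene tested in that experiment.

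Several facts about the libraries bear on what follows. H2AFX, the H2A.X gene, was at 89.7 to 136 CPM in WT and 17.5 to 59.8 CPM in KO libraries, and BAZ1B, of which the deletion removes the start alone, was at 242 to 264 CPM in WT and 174 to 222 CPM in KO libraries. The H2A.X WT D0 libraries stood apart from the other D0 libraries: their summed level of 12 erythroid markers was 23474 to 31939 CPM, against 11986 to 15935 CPM in H2A.X KO D0 and 6304 to 7903 CPM in the BAZ1B experiment at D0. Of the 12 markers, 8 were called lower in H2A.X KO than in WT cells at D0 and none higher, where 16.7% of all genes were called lower and 18.4% higher. Whether these WT libraries stood at the labelled day was not tested, and they enter every H2A.X value between genotypes at D0 and every H2A.X WT value between days. By D6 that sum was 32192 to 71635 CPM over both experiments, and no erythroid marker was at 0 in any group apart from HBG1 in BAZ1B KO D0. Summed markers of macrophages and monocytes lay between 0 and 6.45 CPM, of neutrophils between 0.385 and 2.10 CPM, and of cytotoxic T and NK cells between 0 and 1.76 CPM. Megakaryocyte markers summed to 1.48 to 75.7 CPM. In 5 of the 6 H2A.X KO columns, and in no WT column, the column name carries the word Redo, so any repeat of KO libraries cannot be told apart from genotype at D0. In H2A.X KO against WT, fold changes also ran with transcript length across 12017 genes with a known length (a Spearman coefficient of 0.545 on D0 and 0.602 on D6, as a description): genes under 1 kb had a median log2 fold change of −0.78 at D0 and −1.07 at D6, and genes over 3 kb had 0.42 and 0.52. In the BAZ1B comparisons this coefficient lay between −0.07 and 0.07.

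**Figure D1:**
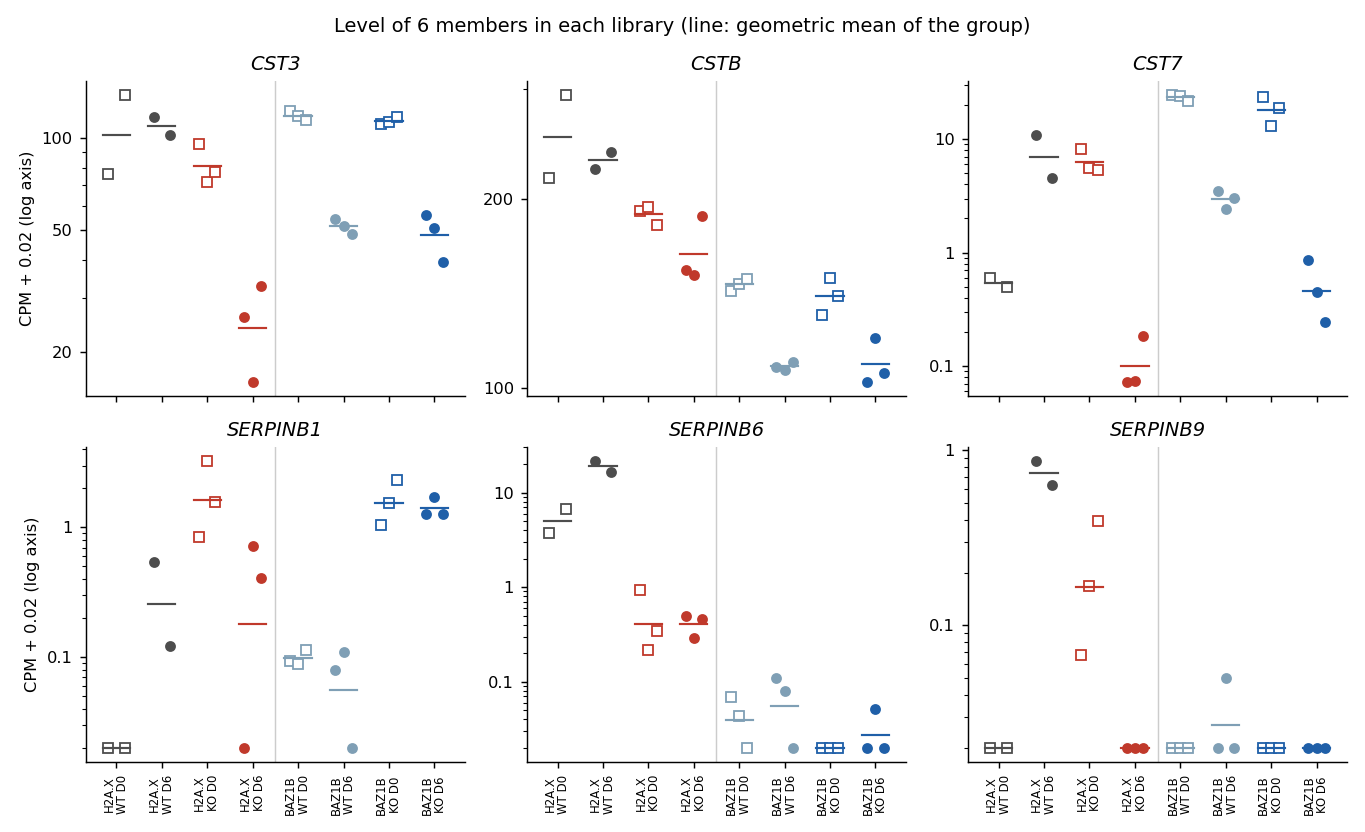
Level of 6 members in each of the 22 libraries, as CPM plus 0.02 on a log axis, with squares for D0, circles for D6 and a line at the geometric mean of the group. CST7 was lower at D6 than at D0 in 3 of the 4 genotypes and higher in H2A.X WT, and SERPINB6 was high in the 4 H2A.X WT libraries.

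The stefin CSTB and the secreted cystatin CST3 were the abundant members, at 174 to 498 RPKM and 20.1 to 174 RPKM over the 22 libraries. CST7 reached 27.3 RPKM, SERPINB6 16.4 RPKM, SERPINB1 1.30 RPKM and SERPINB9 0.204 RPKM at their highest, and all of these were at or below 0.0587 RPKM in their lowest library. CSTA and SERPINB8 had 1 read each in the whole series, both in the BAZ1B experiment. Of the 8 members, 5 passed the filter on low counts in the H2A.X experiment (CST3, CST7, CSTB, SERPINB1 and SERPINB6) and 4 in the BAZ1B experiment (the same without SERPINB6). SERPINB9, CSTA and SERPINB8 entered no test. The filter was reached through the group with the higher level alone for SERPINB1 in both experiments (KO libraries) and for SERPINB6 (H2A.X WT libraries), so a difference was already needed for these genes to be tested, and their calls are no independent support for it. CST7 in the H2A.X experiment reached the filter level in 3 KO D0 and 2 WT D6 libraries, against 1 WT D0 and 0 KO D6 libraries. The WT D6 libraries are among those that chose the gene.

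CST7 had the widest range of the cystatins, and its order of group means was as follows. BAZ1B WT D0 was highest at 23.4 ± 1.38 CPM (SD, n = 3), followed by BAZ1B KO D0 at 18.5 ± 5.36 CPM (SD, n = 3), and these groups overlapped. H2A.X WT D6 at 7.64 ± 4.46 CPM (SD, n = 2) and H2A.X KO D0 at 6.38 ± 1.61 CPM (SD, n = 3) came next and overlapped too. BAZ1B WT D6 followed at 2.97 ± 0.548 CPM (SD, n = 3). Below it were H2A.X WT D0 at 0.526 ± 0.0698 CPM (SD, n = 2) and BAZ1B KO D6 at 0.500 ± 0.316 CPM (SD, n = 3), which overlapped, and H2A.X KO D6 was lowest at 0.0904 ± 0.0645 CPM (SD, n = 3).

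At D0, CST7 was higher in H2A.X KO cells than in WT cells. The WT libraries had 10 and 7 reads (0.575 and 0.477 CPM) and the KO libraries 171, 114 and 114 reads (8.23, 5.57 and 5.34 CPM). Every KO library was above both WT libraries. The difference was 11.9-fold (log2 fold change 3.58 ± 0.52 SE, edgeR adjusted p = 0.00401), in a comparison where 18.4% of 13236 genes were called higher and 16.7% lower. The cells are of the same subclones as those at D6 on which the gene was chosen. CST7 passed the filter through KO D0 libraries, the higher group here, and WT D6 libraries, which helped to choose it. Its D0 call is therefore no independent support either. Without H2A.X WT D0 replicate 2 the call was lost (log2 fold change 3.45, edgeR adjusted p = 0.0766).

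At D6 the order was turned round. H2A.X WT libraries had 166 and 44 reads of CST7 (10.8 and 4.48 CPM), and the KO libraries had 1, 1 and 3 reads (0.0523, 0.0541 and 0.165 CPM). The fitted log2 fold change was −6.31, which is part of what chose the gene. Within H2A.X WT cells CST7 was 14.4 times as high at D6 as at D0, and in H2A.X KO cells it was 65.9 times lower at D6. The size of these differences moved with single libraries: the log2 value of 3.85 in WT cells was 3.05 without WT D6 replicate 1, and that of −6.04 in KO cells was −6.70 without KO D6 replicate 3. Between the genotypes at D6 it was −5.51 without the former library and −6.97 without the latter. The groups of the 2 days did not overlap in either genotype.

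CST7 fell from D0 to D6 in both genotypes of the BAZ1B experiment. WT cells went from 999, 1048 and 929 reads (24.3, 24.0 and 21.8 CPM) to 118, 80 and 112 reads (3.50, 2.41 and 3.00 CPM). That is a 7.85-fold decrease (log2 fold change −2.97 ± 0.25 SE, edgeR adjusted p = 2.79e-07). BAZ1B KO cells went from 903, 518 and 662 reads (23.7, 13.0 and 18.9 CPM) to 32, 14 and 8 reads (0.844, 0.432 and 0.223 CPM), a 36.3-fold decrease (log2 fold change −5.18 ± 0.32 SE, edgeR adjusted p = 1.41e-08). Without BAZ1B KO D6 replicate 1 the log2 fold change was −5.82.

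CST7 did not differ detectably between BAZ1B KO and WT cells at D0 (log2 fold change −0.34 ± 0.22 SE, edgeR adjusted p = 0.512), where KO replicate 1 lay among the WT libraries. At D6 every KO library was below every WT library, and the gene was 5.84-fold lower in KO cells (log2 fold change −2.55 ± 0.36 SE, edgeR adjusted p = 0.000552). The KO effect at D6 differed from that at D0 by −2.21 ± 0.43 SE on the log2 scale (edgeR adjusted p = 0.0190). For this difference of differences, 1.58% of 13879 genes were called higher and 0.893% lower. Leaving out any of 6 of the 12 libraries moved its adjusted p to between 0.0509 and 0.0547, as listed by library under the processing of the results. Without BAZ1B KO D6 replicate 1, the KO library with the most CST7 reads on that day, the log2 fold change at D6 was −3.19 and the difference of KO effects −2.85.

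Markers of several other cell types also differed between groups, some in the direction of CST7 and some against it. The 9 markers of mast cells and eosinophils, granulated cells that express CST7, summed to 467 to 508 CPM in BAZ1B WT D0, 453 to 620 CPM in BAZ1B KO D0, 30.0 to 40.8 CPM in BAZ1B WT D6 and 12.2 to 38.4 CPM in BAZ1B KO D6. In the H2A.X experiment they summed to 104 to 140 CPM in WT D0, 209 to 419 CPM in KO D0, 145 to 232 CPM in WT D6 and 3.08 to 13.5 CPM in KO D6. Most of the sum in H2A.X WT D6 was from the tryptase genes TPSAB1 (42.5 and 79.4 CPM) and TPSB2 (102 and 152 CPM). In H2A.X WT cells, where CST7 rose with day, their described log2 fold changes were 0.75 and 0.59. Those of CPA3, MS4A2 and EPX were 3.58, −0.61 and −4.21, at 13 reads or fewer per group. Of the 9 markers, 6 passed the filter in the BAZ1B experiment, and those 6 fell with day in both genotypes. With day 35.4% of all genes were called lower in BAZ1B WT and 34.5% in BAZ1B KO cells. At H2A.X D0, 3 of the 5 that passed were called higher in KO cells and none lower, where 18.4% of genes were called higher and 16.7% lower. These were CPA3, EPX and MS4A2, with at most 8 reads in any WT library, under the level the filter asks for (0.556 CPM on unadjusted library sizes). They passed through KO libraries alone, so their calls are no independent support. The 2 defining markers CPA3 and HDC were at 0 in H2A.X WT D0, HDC was also at 0 on D6 in both H2A.X genotypes, and EPX was at 0 on D6 in both, PRG3 was at 0 in 6 of the 8 groups and CLC in 7. In BAZ1B KO against WT, 2 of 6 were called higher at D0, where 1.25% of genes were, and at D6 none was called in either direction.

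Megakaryocyte markers, a list of 6, summed to 8.72 to 9.67 CPM in H2A.X WT D0, 32.7 to 75.7 CPM in H2A.X KO D0, 3.57 to 7.93 CPM in H2A.X WT D6 and 2.09 to 4.84 CPM in H2A.X KO D6. In the BAZ1B experiment they summed to 72.3 to 75.5 CPM in WT D0, 34.4 to 67.6 CPM in KO D0, 8.44 to 10.4 CPM in WT D6 and 1.48 to 4.80 CPM in KO D6. ITGA2B (integrin alpha IIb) alone of the 6 passed the filter, and PF4, PPBP and GP1BB were at 0 in every group. ITGA2B was higher in H2A.X KO cells at D0 (log2 fold change 2.39 ± 0.48 SE, edgeR adjusted p = 0.00847), lower in BAZ1B KO cells at D6 (−1.59 ± 0.33 SE, edgeR adjusted p = 0.00660), and lower at D6 than at D0 in BAZ1B WT and KO cells (−2.98 ± 0.27 SE and −4.07 ± 0.30 SE, edgeR adjusted p = 4.55e-07 and 8.33e-08). In H2A.X WT cells, where CST7 rose with day, the described log2 fold change of ITGA2B was −0.65. LYZ (lysozyme) was the 1 macrophage and monocyte marker of 8 that passed. It was called higher in H2A.X KO cells at D0 (4.28 ± 0.94 SE, edgeR adjusted p = 0.0113). The WT libraries held 0 and 2 LYZ reads at D0 and none at D6, against 25 to 35 in each KO D0 library. LYZ thus passed the filter through KO libraries alone, so this call is no independent support and 4.28 is no measure of size. With day LYZ fell in BAZ1B WT and KO cells (−4.94 ± 0.50 SE and −6.87 ± 0.65 SE, edgeR adjusted p = 1.38e-06 and 8.30e-07). Its whole list summed to 0.301 to 0.429 CPM in BAZ1B WT D6 and 0.132 to 0.278 CPM in BAZ1B KO D6. At these fold changes LYZ lay under the level of the filter (0.26 CPM) at D6 and passed through D0 libraries. These calls are therefore no independent support, and the sizes are uncertain. At BAZ1B D6, where CST7 was called lower in KO cells, the neutrophil marker LTF (lactoferrin) was called lower (−2.26 ± 0.67 SE, edgeR adjusted p = 0.0447). It was the 1 call among 3 neutrophil markers that passed, whose median log2 fold change was −0.02. Of all genes 5.97% were called lower and 6.87% higher in that comparison. The neutrophil list summed to 0.572 to 0.624 CPM in WT D6 and 0.418 to 0.923 CPM in KO D6, so its sums overlapped. In bulk RNA fewer cells of a type and less RNA per cell cannot be told apart, and the part of these cells in the CST7 differences was not tested.

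**Figure D2:**
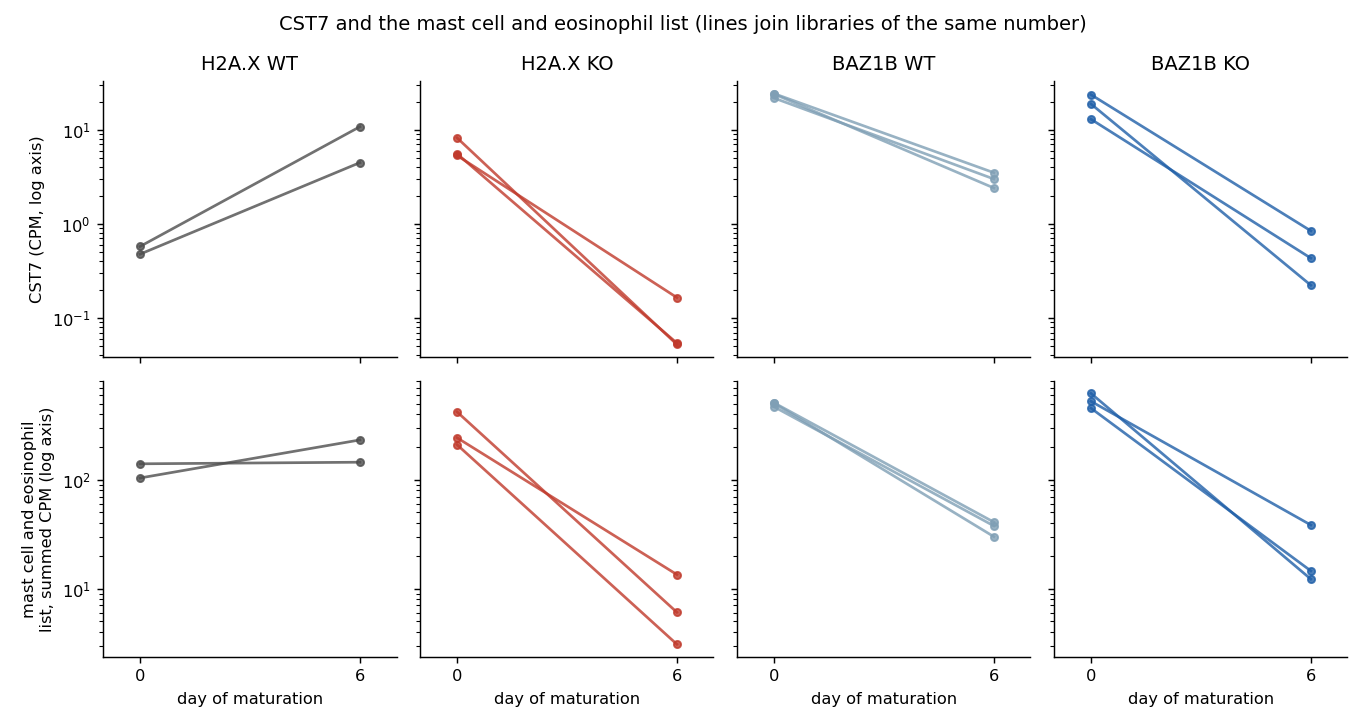
CST7 (upper row, CPM) and the summed level of 9 mast cell and eosinophil markers (lower row, CPM), both on log axes, at D0 and D6 in each genotype, with lines joining libraries of the same number. Both were lower at D6 in H2A.X KO, BAZ1B WT and BAZ1B KO, and CST7 was higher at D6 in both H2A.X WT replicates, whose marker sums ran from 104 to 232 CPM.

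CST3 fell with maturation in the BAZ1B experiment. WT libraries held 123, 118 and 114 CPM at D0 and 54.6, 51.8 and 48.5 CPM at D6, a 2.29-fold decrease (log2 fold change −1.20 ± 0.09 SE, edgeR adjusted p = 1.33e-07). KO libraries held 111, 113 and 117 CPM at D0 and 56.1, 50.8 and 39.5 CPM at D6, a 2.32-fold decrease (log2 fold change −1.22 ± 0.09 SE, edgeR adjusted p = 1.22e-07). The days did not overlap in either genotype. BAZ1B KO and WT cells differed by −0.06 ± 0.09 SE at D0 and −0.08 ± 0.10 SE at D6 on the log2 scale (edgeR adjusted p = 0.828 and 0.653).

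In the H2A.X experiment the CST3 levels of D0 and D6 overlapped in WT cells, while in KO cells every D6 library was below every D0 library. H2A.X WT libraries held 76.5 and 138 CPM at D0 and 117 and 102 CPM at D6, and the WT libraries of the 2 days overlapped. H2A.X KO libraries held 95.7, 71.8 and 77.5 CPM at D0 and 26.0, 16.0 and 32.8 CPM at D6. At D0 the KO libraries lay between or below the WT libraries (log2 fold change −0.39 ± 0.30 SE, edgeR adjusted p = 0.330), and at D6 they lay below both WT libraries, with a log2 fold change of −2.14. A correction for transcript length and GC content moved the D6 value to −0.76.

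CSTB, the abundant cytosolic stefin, had small fold changes. It fell 1.35-fold from D0 to D6 in the BAZ1B experiment's WT cells, from between 143 and 149 CPM to between 107 and 110 CPM (log2 fold change −0.43 ± 0.06 SE, edgeR adjusted p = 2.63e-05). In BAZ1B KO cells it fell 1.28-fold, from between 131 and 150 CPM to between 102 and 120 CPM (log2 fold change −0.36 ± 0.06 SE, edgeR adjusted p = 0.000141). The KO effects were −0.06 ± 0.06 SE at D0 and 0.01 ± 0.06 SE at D6 on the log2 scale (edgeR adjusted p = 0.691 and 0.926).

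In the H2A.X experiment the CSTB level was 216 and 293 CPM in WT D0, 182 to 194 CPM in KO D0, 224 and 238 CPM in WT D6 and 152 to 188 CPM in KO D6. Both WT libraries were above every KO library on each day. The log2 fold change in KO cells at D0 was −0.43 ± 0.16 SE (edgeR adjusted p = 0.0639), and that at D6 was −0.49. With the length and GC correction the values were 0.29 at D0 and 0.62 at D6, so the direction of CSTB rested on how the trend with length was treated.

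With maturation, 3 of the 8 members (CST3, CST7 and CSTB, of 4 tested) fell in BAZ1B WT cells, where 35.4% of genes were called lower and 33.5% higher. The same 3 fell in BAZ1B KO cells, where 34.5% of genes were called lower and 33.2% higher. Most genes tested changed with day in this experiment, so the members' calls are read against that share.

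SERPINB6 was the serpin with the highest level, and that level was found in H2A.X WT libraries. They held 64 and 99 reads at D0 (3.68 and 6.74 CPM) and 331 and 163 reads at D6 (21.5 and 16.6 CPM). H2A.X KO libraries held 19, 4 and 7 reads at D0 (0.914, 0.195 and 0.328 CPM) and 9, 5 and 8 reads at D6 (0.470, 0.271 and 0.440 CPM). In the BAZ1B experiment no library, WT or KO, held more than 3 reads, and 5 of 12 held any. The 18 libraries outside H2A.X WT therefore lay at or below 0.914 CPM, and the 4 H2A.X WT libraries at or above 3.68 CPM.

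At D0 SERPINB6 was 10.7-fold lower in H2A.X KO than in WT cells (log2 fold change −3.42 ± 0.52 SE, edgeR adjusted p = 0.00442), and the genotypes did not overlap. The gene had passed the filter through the WT libraries, where it is high: all 4 reached the level the filter asks for, 0.556 CPM on unadjusted library sizes, against 1 of 6 KO libraries. Without H2A.X WT D0 replicate 2 the call was lost (log2 fold change −2.92, edgeR adjusted p = 0.0707), and without H2A.X KO D0 replicate 1 the log2 fold change was −4.27. At D6, the contrast that chose the gene, the log2 fold change was −5.57. From D0 to D6 the gene was 3.67 times as high in H2A.X WT cells, without overlap, and differed by a log2 fold change of −0.28 in KO cells, with overlap (0.57 without H2A.X KO D0 replicate 1). In BAZ1B cells at D6, the WT libraries held 5 reads in all and the KO libraries 1, a ratio of 5.10 with a 95% counting interval of 0.570 to 241.

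SERPINB6 in the BAZ1B experiment's WT cells was thus unlike that in the H2A.X experiment's WT cells, although both are labelled WT HUDEP-2. CST7 likewise stood at 0.477 and 0.575 CPM in H2A.X WT D0 and at 21.8 to 24.3 CPM in BAZ1B WT D0. The raw counts differed as well. The 4 H2A.X WT libraries held 64 to 331 SERPINB6 reads at 11910141 to 16171864 counted reads each. The 12 BAZ1B libraries held at most 3 at 33199408 to 41273244. CST7 held 17 reads over the H2A.X WT D0 libraries and 2976 over the BAZ1B WT D0 libraries. What changed from one experiment to the other cannot be told apart in such a comparison of WT libraries, and the reason was not tested.

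SERPINB1 was higher in KO cells than in WT cells in 3 comparisons between genotypes. In the BAZ1B experiment at D0 the WT libraries held 3, 3 and 4 reads (0.0730, 0.0688 and 0.0938 CPM) and the KO libraries 39, 61 and 81 reads (1.02, 1.53 and 2.31 CPM). At D6 the WT libraries held 2, 3 and 0 reads and the KO libraries 47, 55 and 45 reads (1.24, 1.70 and 1.25 CPM). All 6 BAZ1B KO libraries were above all 6 WT libraries of that experiment.

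The fitted difference was 19.8-fold at D0 (log2 fold change 4.30 ± 0.46 SE, edgeR adjusted p = 0.000138) and 27.1-fold at D6 (log2 fold change 4.76 ± 0.53 SE, edgeR adjusted p = 0.000101). At D6 it was 5.46 without WT replicate 2 and 4.15 without WT replicate 3 on the log2 scale. All 6 KO libraries and none of the 6 WT libraries reached the level of the filter, 0.26 CPM, so the gene was tested because it was high in KO cells. SERPINB1 was the 1 member called at D0 of the 4 tested, where 1.25% of genes were called higher and 2.64% lower. It was 1 of 2 members called at D6 together with CST7, where 6.87% of genes were called higher and 5.97% lower. The level did not change detectably with day in BAZ1B WT cells (log2 fold change −0.67 ± 0.81 SE, edgeR adjusted p = 0.477) or in BAZ1B KO cells (−0.21 ± 0.32 SE, edgeR adjusted p = 0.576). Nor was a difference between the KO effects of the 2 days detectable (0.46 ± 0.85 SE, edgeR adjusted p = 0.844).

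In the H2A.X experiment at D0 SERPINB1 was at 0 in both WT libraries and held 17, 66 and 33 reads in the KO libraries (0.818, 3.23 and 1.54 CPM). Against the floor of 3 reads over the WT group it was at least 19.8-fold higher in KO cells (edgeR adjusted p = 0.0162). Here too the gene passed the filter through KO libraries, with 3 of 3 at D0 and 1 of 3 at D6 at the level asked for and none of the 4 WT libraries. Both WT libraries were needed for this call: the adjusted p was 0.0615 without replicate 1 and 0.131 without replicate 2. At D6 the WT libraries held 8 and 1 reads and the KO libraries 0, 13 and 7, so the genotypes overlapped. KO cells thus held fewer SERPINB1 reads at D6 than at D0, with no overlap between the days.

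SERPINB9, the granzyme B inhibitor between those genes, was near the limit of detection. H2A.X WT libraries held 0 and 0 reads at D0 and 13 and 6 at D6, and H2A.X KO libraries held 1, 3 and 8 reads at D0 and none at D6. By the floor of 3 reads over a group it was at least 14.0-fold lower in KO than in WT cells at D6, at least 8.06-fold higher at D6 than at D0 in WT cells, and at least 3.57-fold lower at D6 than at D0 in KO cells. At D0 it was at least 2.05-fold higher in KO cells. The BAZ1B experiment held 1 SERPINB9 read in all. These values had no test, since the gene did not pass the filter.

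The 3 neighbouring serpins on chromosome 6 therefore differed in their course within 1 locus. In H2A.X KO D0 cells SERPINB1 and SERPINB9 had more reads and SERPINB6 fewer than in WT cells. In BAZ1B KO cells SERPINB1 had more reads on both days, while SERPINB6 and SERPINB9 had at most 3 and 1 reads in any library of that experiment.

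**Figure D3:**
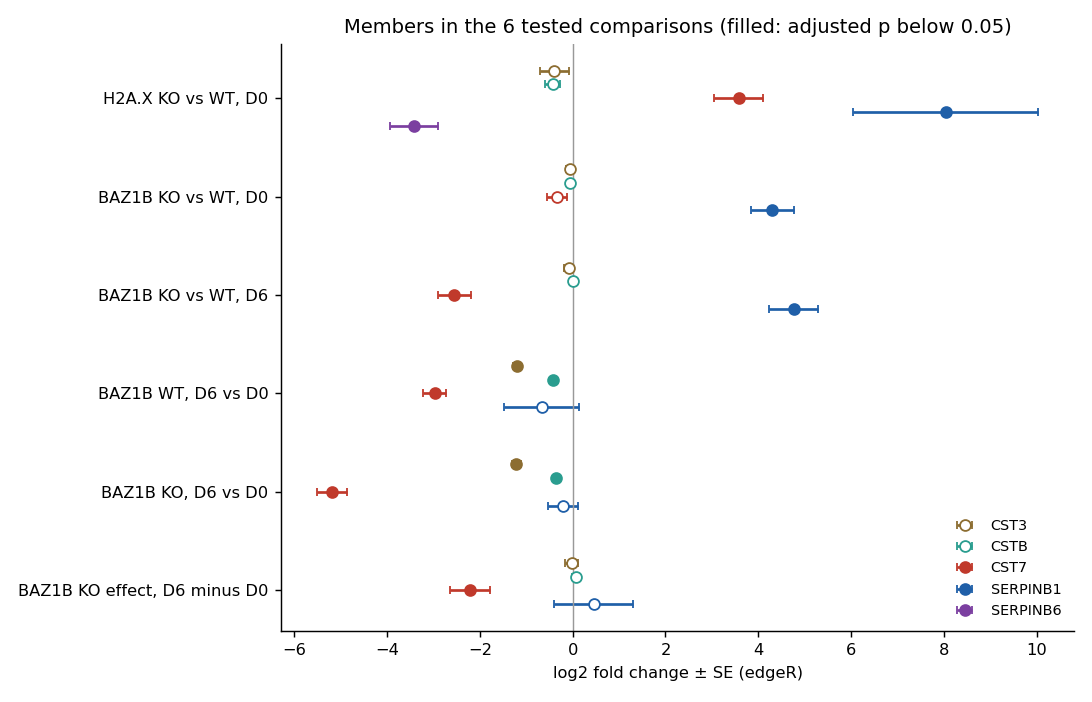
Log2 fold change with its SE (edgeR) of the members that passed the filter in the 6 tested comparisons, with filled points for an adjusted p below 0.05. CST7 lay at 3.58 in H2A.X KO against WT at D0 and at −2.55 in BAZ1B KO against WT at D6. SERPINB1 lay above 4 in the comparisons of KO with WT, of which the H2A.X point was fitted against WT libraries at 0 and is no measure of size.

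Read over members, 3 of the 5 tested were called at H2A.X D0, with CST7 and SERPINB1 higher and SERPINB6 lower. There 18.4% of genes were called higher and 16.7% lower, the largest shares between genotypes. For SERPINB1 and SERPINB6 the filter had admitted the gene through the higher group, and for CST7 through KO D0 and WT D6 libraries. Of the 4 members tested in the BAZ1B experiment, 1 was called at D0, where 1.25% of genes were called higher and 2.64% lower. At D6 2 were called (shares of 6.87% and 5.97%). With day 3 were called in WT (33.5% and 35.4%) and 3 in KO cells (33.2% and 34.5%). In the difference of KO effects 1 was called (1.58% and 0.893%). The comparisons within an experiment share libraries, and the agreement of a member's direction among them is no separate evidence.

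**Figure D4:**
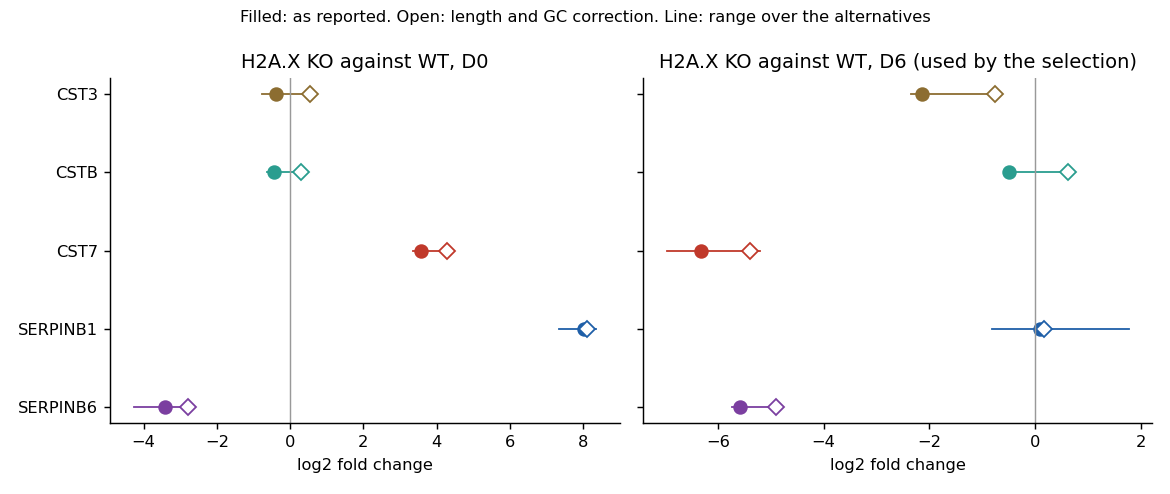
Log2 fold change of 5 members in H2A.X KO against WT at D0 and D6, as reported (filled), after a correction for transcript length and GC content (open) and over every alternative run (line). CST7 and SERPINB6 stayed on their side of 0, while CSTB crossed it on both days and CST3 at D0.

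The target proteases of cystatins were followed as a list of 12 papain-like cysteine proteases and legumain. At H2A.X D0 all 12 passed the filter, with 3 higher and 1 lower in KO cells and a median log2 fold change of 0.28, against 0.01 over all genes tested, of which 18.4% were called higher and 16.7% lower. CTSS (cathepsin S, of antigen-presenting cells) had 5.91 ± 0.60 SE (edgeR adjusted p = 0.000906), CTSH 3.20 ± 1.03 SE (edgeR adjusted p = 0.0365) and CTSV 1.98 ± 0.54 SE (edgeR adjusted p = 0.0203). CTSS held 5 and 8 reads in the WT D0 libraries and 2 in each WT D6 library, against 395 to 682 in each KO D0 library. It passed the filter (0.556 CPM) through KO libraries alone, so its call is no independent support. CTSV held 4 reads in each WT D0 library and 6 and 7 in the WT D6 libraries, against 15 to 24 in each KO D0 library. It too passed through KO D0 libraries, so its call is no independent support. CTSZ was lower, at −0.78 ± 0.22 SE (edgeR adjusted p = 0.0225). The 4 calls fell to 1 without H2A.X WT D0 replicate 2 or KO D0 replicate 2 and to 2 without WT D0 replicate 1 or KO D0 replicate 3, and ran from 1 to 5 over all alternatives.

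In the BAZ1B experiment 11 of the 12 passed. With day, 5 rose and 5 fell in WT cells, where 33.5% of genes were called higher and 35.4% lower. The counts were likewise 5 and 5 in KO cells, where the shares were 33.2% and 34.5%. The largest were CTSS at −4.95 ± 0.25 SE, CTSW (a lymphocyte protease) at −4.08 ± 0.83 SE and CTSO at 2.24 ± 0.52 SE in WT cells (edgeR adjusted p = 2.28e-09, 0.000717 and 0.00183). In KO cells they were CTSS at −5.74 ± 0.27 SE, CTSW at −4.62 ± 1.2 SE and CTSV at −3.74 ± 0.60 SE (edgeR adjusted p = 1.47e-09, 0.00406 and 0.000102). Between genotypes none was called at D0 (1 without KO D0 replicate 2), and at D6 CTSH was higher (1.52 ± 0.46 SE, edgeR adjusted p = 0.0470) and CTSF and CTSL lower (−0.54 ± 0.13 SE and −0.27 ± 0.06 SE, edgeR adjusted p = 0.0156 and 0.0145). Of all genes 6.87% were called higher and 5.97% lower at D6. Without BAZ1B WT D6 replicate 3 none of these 3 calls at D6 was left, and without KO D6 replicate 3 the count was 1. None was called in the difference of KO effects, and 1 was without KO D6 replicate 2.

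The serine proteases of granules, of the kind that clade B serpins bind, were a list of 13. In the BAZ1B experiment 5 passed, and 4 of these fell with day in WT and 4 in KO cells, where 35.4% and 34.5% of all genes were called lower. In WT cells PRTN3 (proteinase 3) was at −4.51 ± 0.72 SE, and the tryptase genes TPSAB1 and TPSB2 were at −3.78 ± 0.28 SE and −3.65 ± 0.30 SE (edgeR adjusted p = 9.83e-05, 6.23e-08 and 1.77e-07). PRTN3 is also on the neutrophil list, whose sum was at most 1.45 CPM in BAZ1B WT D0. At that fold change it lay under the level of the filter (0.26 CPM) at D6. It thus passed through D0 libraries, so its call is no independent support and −4.51 is no measure of size. In KO cells TPSAB1 was at −4.79 ± 0.30 SE, TPSB2 at −4.32 ± 0.31 SE and TPSD1, a further tryptase gene, at −4.15 ± 0.28 SE (edgeR adjusted p = 1.42e-08, 5.68e-08 and 3.41e-08). TPSAB1 and TPSB2 are near-identical copies, and reads may be split between them. No granule protease was called between BAZ1B genotypes or in the difference of KO effects, but 3 were at D6 and 3 in that difference without KO D6 replicate 1. At H2A.X D0, 4 passed and TPSD1 was higher in KO cells (1.51 ± 0.50 SE, edgeR adjusted p = 0.0388), where 18.4% of genes were called higher. That single call was 0 without H2A.X WT D0 replicate 1 or 2 or KO D0 replicate 1 or 3, and the count ran from 0 to 3 over all alternatives.

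Of 14 other cystatins, none passed the filter in the H2A.X experiment and AHSG (fetuin A) alone passed in the BAZ1B experiment, where it fell with day in WT cells (−2.47 ± 0.54 SE, edgeR adjusted p = 0.00124) and in KO cells (−1.98 ± 0.44 SE, edgeR adjusted p = 0.00138). None of 9 other clade B serpins passed in either experiment, and 8 had no read in the H2A.X libraries and 9 none in the BAZ1B libraries. Of 13 serpins of other clades, 4 passed in the H2A.X experiment and SERPINI1 (neuroserpin) was lower at D0 in KO cells (−0.78 ± 0.27 SE, edgeR adjusted p = 0.0459), a call that was lost without WT D0 replicate 2 or any of the KO D0 libraries. In the BAZ1B experiment 5 passed, and SERPINI1 rose with day in WT cells (1.59 ± 0.13 SE, edgeR adjusted p = 1.39e-07) and in KO cells (1.79 ± 0.13 SE, edgeR adjusted p = 6.43e-08). SERPINH1, a collagen chaperone, fell slightly with day in WT cells (−0.25 ± 0.08 SE, edgeR adjusted p = 0.0132) and in KO cells (−0.32 ± 0.08 SE, edgeR adjusted p = 0.00262). With day 33.5% of all genes were called higher and 35.4% lower in BAZ1B WT cells, and 33.2% and 34.5% in BAZ1B KO cells. At H2A.X D0 16.7% of all genes were called lower in KO cells.

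The genes whose log2 CPM followed CST7 most closely over the 10 H2A.X libraries were ANXA1, ANTXR2 and RGS14 (Pearson r of 0.971, 0.970 and 0.961), among 10161 candidates. Over the 12 BAZ1B libraries they were PTPN22, GCSAML and STK40 (0.996, 0.993 and 0.992), among 10920 candidates. For SERPINB6 over the 10 H2A.X libraries they were CD151, ENKD1 and HES5 (0.984, 0.969 and 0.963). These are descriptions of libraries that share 4 groups, their depth and their days, and the 3 genes named for CST7 differed between the experiments.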

How the data were processed

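RNA-Seq of 22 HUDEP-2 libraries was used. Per gene, the authors deposited raw counts, with no normalization and 1 table for each experiment. Their processing notes name STAR 2.7.0f, Subread 1.6.4, featureCounts, DESeq2 1.22.1 and the build hg38. The labels name an unstranded TruSeq kit and the methods a stranded kit, so overlapping antisense transcripts may share reads. All columns were mapped to samples.

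Counts were fitted in R 4.3.3 with edgeR 4.0.16 (filterByExpr at a minimum count of 10 and total of 15, TMM, glmQLFTest, 1 coefficient per genotype and day, every library of an experiment). Transcript lengths came from GENCODE release 44. The filter kept 13236 genes (H2A.X) and 13879 (BAZ1B). The fit was tested on simulated data. Alternatives were DESeq2 1.42.0, upper-quartile scaling, no filter, libraries of the groups compared alone, a replicate block, length and GC correction, and each library left out. KO numbers name subclones, and their D0 and D6 libraries deviated together (r of 0.158 to 0.653), so they pair days within KO. WT libraries of the same number had r of 0.447 in the H2A.X experiment and 0.00529 to 0.168 in the BAZ1B experiment. The labels do not say whether WT numbers pair days. No replicate pair agreed within sampling noise.

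The members and the gene lists were chosen with earlier results of these data known. All members are named, and listed genes where called, at most the 3 with the largest absolute fold change of a list and comparison. The result of 1 listed gene that this rule would name is not reported here. Calls of members that passed the filter through the higher group alone are marked as such.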

Additional observations from a re-analysis of the deposited data

Results flagged for a closer look

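Groups held 2 or 3 libraries, so no library was tested for standing apart from its group. CST7 is listed because its BAZ1B KO effect differed between the days by −2.21 on the log2 scale (edgeR adjusted p = 0.0190, lower in 3 of 3 KO libraries than in any WT library at D6).

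The remaining values are listed because every library of a group moved opposite to every library of another under the same contrast, and these differences were not tested. For CST7 in the H2A.X experiment, the change with day in KO cells minus that in WT cells was −9.89 on the log2 scale, and the same number is how far the KO effect moved between the days. The change of CST7 with day in WT cells was 6.82 higher on the log2 scale in the H2A.X than in the BAZ1B experiment. For SERPINB1 the change with day in H2A.X KO cells minus that in WT cells was fitted at −7.94 on the log2 scale, against WT D0 libraries with no read, so it is no measure of size.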

How the results depend on the processing

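The count of called members was 3 at H2A.X D0, 1 at BAZ1B D0, 2 at BAZ1B D6, 3 with day in BAZ1B WT and in BAZ1B KO, and 1 for the difference of BAZ1B KO effects. At a stricter cutoff (0.001 for the adjusted p, 1.5 for the size of the log2 change) it became 0 at H2A.X D0, 1 with day in each BAZ1B genotype and 0 for the difference of KO effects, since fewer genes can pass. With the same limits on the unadjusted p, as the study's text words them and as chosen after seeing the data, the counts were 2, 1, 2, 1, 1 and 1. Leaving out each library gave 0 to 3 at H2A.X D0, with 0 without WT replicate 2. For the difference of KO effects it gave 0 to 1, with 0 without BAZ1B WT D0 replicate 1, 2 or 3, WT D6 replicate 1 or 3, or KO D6 replicate 3, when CST7 had a log2 value of −1.86 to −2.24. The replicate block changed no member's call: the counts with it were 3, 1, 2, 3, 3 and 1 in the order above. For KO against WT the block joined WT and KO libraries of the same number, which are not known to be paired. These deviated together little (r of −0.0492 to 0.217), so the block is no check of a pairing there. CSTB at H2A.X D0 passed with DESeq2 (adjusted p = 0.0463), with upper-quartile scaling (0.0465) and without WT D0 replicate 1 (0.0204). Over 339 recomputed values of members in tested comparisons, 16 changed sign, and none of these was a call in either fit. Among them CST3 at H2A.X D0 went to 0.55 and CSTB to 0.29 with the length and GC correction. Of the described H2A.X values, SERPINB1 at D6 lay between −0.82 and 1.78. Genes near 3 reads, such as SERPINB9, and the 2 WT libraries of each day in the H2A.X experiment limit these results.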
